A study of Mus musculus with 4 samples.

Results

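Open chromatin in the first intron of a gene, within 10 kb of a transcription start site (TSS), was examined in retinal endothelial cells of mice with and without the ubiquitin ligase gene Rnf20. The peaks were taken from the authors' deposited table of knockout against control by their annotation as intron 1 of a transcript and by a distance of at most 10000 bases, in either direction, from the TSS of the gene they were assigned to. The rule used no measured level. It found 598 peaks among the 6891 listed, assigned to 565 gene symbols. A further 520 first-intron peaks lay beyond 10000 bases.

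The assay was ATAC-seq, which reads out open chromatin from the sites a transposase can reach. All pups belonged to a C57BL/6 line with a Pdgfb-icre/ERT2 transgene and the Rnf20tm1a(EUCOMM)Wtsi allele, and were injected with 75 µg of 4-hydroxytamoxifen on each day from postnatal day 1 to 4. Retinas were taken at postnatal day 7, and endothelial cells were bound to magnetic beads carrying an antibody to CD31. Controls were labelled Cre negative (Pdgf{beta}CreERT2neg Rnf20p/p) and knockouts Cre positive (Pdgf{beta}CreERT2pos Rnf20p/p), so the drug and the Rnf20p/p genotype were common to both groups. The Pdgfb promoter restricts the inducible Cre mainly to endothelium. Of 4 libraries, 1 control and 1 knockout have labels that agree, and the title and genotype of the other 2 contradict each other. Which libraries entered each group mean is not labelled, and the table gives no value per library, so no peak below has an SD, a replicate check or a new test. Knockout and control are the authors' column names throughout, and every level, fold and FDR below is the value in the authors' deposited table.

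The first intron begins just behind the first exon, and its early part often lies in the same open, nucleosome-depleted domain as the promoter. It frequently carries enhancers and alternative promoters, and in many genes it is the longest intron. RNF20, with its partner RNF40, attaches a single ubiquitin to histone H2B behind elongating RNA polymerase, a mark found over the transcribed part of active genes and most strongly towards its start. H2B ubiquitination in turn promotes methylation of histone H3 around promoters and gene bodies.

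Some of the peaks closest to a TSS ran across the first exon into the promoter. The sequence of that stretch is known from RefSeq (build GRCm38.p6, the assembly also called mm10). In 26 of the 598 first-intron peaks the open region reached into the 250 bases upstream of a RefSeq TSS, and 22 of these had a negative log2 fold (knockout minus control) and 4 a positive one. For the peaks assigned to Egln1 and Kcp that TSS was of another gene (Gm46060 and Gm26627). The table of promoters does not cover every gene, and the rest of each peak is not printed. Shown 5′ to 3′ on the strand of the gene are 5 of these windows, with the bases inside the peak in capitals. They are the 1 window of a peak called at a false discovery rate (FDR) under 0.05 (Zfp874a), a second zinc finger gene of the same chromosome (Zfp273), 2 genes with known roles in vessels or in growth factor signalling (Ece1, the endothelin-converting enzyme, and Fstl1, a secreted follistatin-like protein that binds ligands of the TGF-beta and BMP family), and a peak of positive fold (Ctnna3, an alpha-catenin of cell junctions). The windows lie at chr13:67451625-67451874 on the minus strand (Zfp874a), chr13:67813566-67813815 on the plus strand (Zfp273), chr4:137913308-137913557 on the plus strand (Ece1), chr16:37776805-37777054 on the plus strand (Fstl1) and chr10:63457261-63457510 on the plus strand (Ctnna3).
Zfp874a: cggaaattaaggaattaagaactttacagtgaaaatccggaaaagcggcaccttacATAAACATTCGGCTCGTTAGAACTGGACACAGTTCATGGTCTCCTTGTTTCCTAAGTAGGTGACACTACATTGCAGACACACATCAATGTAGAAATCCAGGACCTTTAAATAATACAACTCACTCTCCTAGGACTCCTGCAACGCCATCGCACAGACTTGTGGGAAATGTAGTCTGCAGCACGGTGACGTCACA
Zfp273: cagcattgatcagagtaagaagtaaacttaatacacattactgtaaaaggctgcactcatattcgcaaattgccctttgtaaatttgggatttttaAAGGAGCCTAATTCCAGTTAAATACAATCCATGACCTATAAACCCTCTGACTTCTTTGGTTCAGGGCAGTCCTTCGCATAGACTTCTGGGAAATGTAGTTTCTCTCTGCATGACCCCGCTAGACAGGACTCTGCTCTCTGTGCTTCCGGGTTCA
Ece1: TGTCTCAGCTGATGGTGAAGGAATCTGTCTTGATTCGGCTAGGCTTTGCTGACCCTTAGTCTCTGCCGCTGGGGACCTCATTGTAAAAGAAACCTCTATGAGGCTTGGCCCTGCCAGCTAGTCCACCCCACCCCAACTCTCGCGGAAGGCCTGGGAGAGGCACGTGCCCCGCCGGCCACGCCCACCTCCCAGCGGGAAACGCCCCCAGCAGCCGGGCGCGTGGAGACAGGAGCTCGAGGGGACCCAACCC
Fstl1: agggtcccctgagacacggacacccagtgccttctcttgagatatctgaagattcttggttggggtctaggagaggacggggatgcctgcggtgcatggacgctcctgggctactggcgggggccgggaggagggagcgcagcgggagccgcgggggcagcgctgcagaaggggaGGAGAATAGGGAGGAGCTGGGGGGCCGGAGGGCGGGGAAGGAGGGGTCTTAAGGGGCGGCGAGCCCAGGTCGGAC
Ctnna3: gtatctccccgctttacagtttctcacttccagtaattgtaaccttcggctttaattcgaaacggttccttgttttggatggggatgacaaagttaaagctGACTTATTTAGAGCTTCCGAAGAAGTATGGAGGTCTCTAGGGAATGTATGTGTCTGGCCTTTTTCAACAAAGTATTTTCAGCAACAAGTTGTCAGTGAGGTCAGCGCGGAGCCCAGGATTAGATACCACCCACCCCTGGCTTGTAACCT

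The peaks covered different lengths of these windows. The Zfp874a peak took in 194 of the 250 bases, the Zfp273 peak 154, the Ctnna3 peak 149 and the Fstl1 peak the 75 next to the TSS, while the Ece1 peak took in all 250. In the authors' deposited table the Zfp874a peak had a knockout mean of 5.10 and a control mean of 6.42, and the Ece1 peak 5.95 and 6.62, both on the log2 scale. The Ece1 difference of -0.67 had an FDR of 0.465. Fstl1 had a log2 fold of -1.05, Zfp273 of -0.71 and Ctnna3 of 0.74, and none of these passed FDR < 0.05.

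Exact letters of common motifs were searched on both strands of the windows and of all 32851 promoter windows of the table. GGAA, the core of ETS factor sites, was in each of the 5 windows and in 93.4% of all promoters. The Zfp874a window also held GTGGGAA, the letters bound by the Notch effector RBPJ, which contain GGAA and were in 5.42% of promoters, and TGACGTCA, the CREB site, which was in 1.55%. The Ece1 window held the E-box CACGTG (6.02% of promoters), and the Fstl1 window GGGCGG of the SP and KLF factors (32.7%). The Ctnna3 window held CTTTGTT of the SOX factors (5.03%) and GGAATG of the TEAD factors (12.6%), the latter again containing GGAA. None of the 5 held ACCGGAAGT, a full ETS site (0.804% of promoters), TGANTCA of the AP-1 factors (6.75%), TGTTTAC of the forkhead factors (3.17%) or AGATAA, which is bound by GATA factors (9.99%). The longest run that the Zfp874a and Zfp273 windows shared on their own strands was TGGGAAATGTAGT, 13 bases, found after the windows were seen. In the Zfp874a window that run overlaps the GTGGGAA letters, so they are not separate features. On either strand that run was in 128 of the 32851 windows, and in 31 of the 406 windows of genes named Zfp. These matches describe letters only. A comparison of base composition between the genes of first-intron peaks and all genes is void, because 458 of the 598 peaks, under 80%, had a promoter in the table.

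First-intron peaks near the TSS were mostly listed with less accessibility in the knockout column, against the direction of the table as a whole. Of the 598, the authors' deposited table gave 383 a negative log2 fold and 215 a positive one, which is a positive share of 36.0% (95% exact binomial interval 32.1 to 39.9, which covers counting error only). Over all 6891 listed peaks the positive share was 62.1%. The median log2 fold was -0.91 for the first-intron peaks, with quartiles of -1.29 and 1.04, and 0.93 for the whole table. Positive folds had a median of 1.29, counting 6 peaks with a control listed at 0, and ran from 0.60 to 3.29 in the others. Negative folds had a median of -1.18 and ran from -3.48 to -0.59. The gap around 0 comes with the table, which lists only peaks at an unadjusted p under 0.05.

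At the authors' FDR < 0.05, 13 of the 598 peaks (2.17%) were called, 3 higher and 10 lower in the knockout. Of all listed peaks 3.02% were called, 1.29% higher and 1.73% lower, so the share called among the first-intron peaks was near or under the background. Another 22 had an FDR between 0.05 and 0.1. The highest FDR of any was 0.543. In bulk ATAC-seq, fewer cells of a type with an open site and less opening per cell cannot be told apart.

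**Figure D1:**
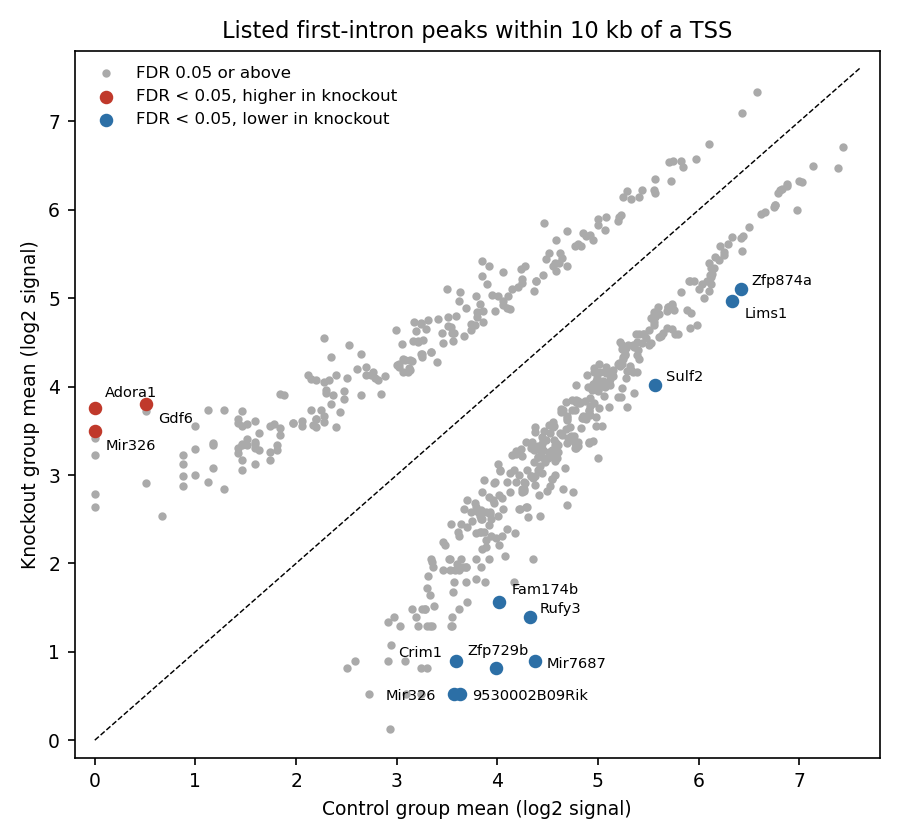
Each point is 1 of the 598 first-intron peaks, with the authors' control mean on the x axis and their knockout mean on the y axis, both in log2 signal; the dashed line marks equal means. The 10 peaks called lower at FDR < 0.05 (blue) lie below the line, 7 of them with a knockout mean under 2, and the 3 called higher (red) have a control mean of 0.51 or 0.

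The peaks called lower fell into 2 kinds by level. At Zfp874a, Lims1 and Sulf2 both groups had clear signal. Lims1 encodes PINCH, the adaptor that ties integrin-linked kinase to focal adhesions, and its peak (chr10:58354520-58355065, 2830 bases from the TSS) fell from a control mean of 6.33 to a knockout mean of 4.97, a log2 fold of -1.36 with an FDR of 0.0273 in the authors' deposited table. Sulf2 encodes an extracellular sulfatase that trims heparan sulfate, the matrix sugar that holds VEGF and other growth factors. Its peak (chr2:166153927-166154682, 980 bases) fell from 5.57 to 4.02, a log2 fold of -1.55 (FDR 0.0273). The Zfp874a peak shown above (chr13:67451167-67451818, 131 bases) fell from 6.42 to 5.10, a log2 fold of -1.31 (FDR 0.039).

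At the other 7 the control mean was moderate and the knockout mean low. The smallest FDR belonged to a peak in the first intron of Gse1, a subunit of histone deacetylase corepressor complexes, which the authors assigned to the microRNA gene Mir7687 (chr8:120547911-120548225). It fell from 4.37 to 0.89 in the authors' deposited table, a log2 fold of -3.48 with an FDR of 0.000399. At Rufy3, a RUN and FYVE domain protein known for its part in axon growth, the peak 8869 bases from the TSS (chr5:88573765-88574053) fell from 4.32 to 1.39, with an FDR of 0.00946. Rufy3 had another first-intron peak 1537 bases from the TSS, with a log2 fold of -1.31 and an FDR of 0.0951. These were the only peaks of the set under FDR 0.01 (Mir7687 and the far Rufy3 peak), and both lay in the outer part of the range, 9372 and 8869 bases from the TSS.

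The remaining lower calls had FDR values between 0.0273 and 0.043. Crim1, a transmembrane protein that binds bone morphogenetic proteins (BMPs), had a peak at chr17:78206922-78207084, 6755 bases from the TSS, that fell from 3.59 to 0.89 (log2 fold -2.70). The zinc finger gene Zfp729b had one at chr13:67609163-67609371, 440 bases from the TSS, that fell from 3.99 to 0.82 (log2 fold -3.16). Fam174b, a membrane protein gene, fell from 4.02 to 1.56 and the transcript 9530002B09Rik from 3.63 to 0.52. The last lay in the first intron of Arrb1, which encodes a beta-arrestin that uncouples activated receptors, and was assigned to Mir326. There the peak at chr7:99549967-99550129 fell from 3.57 to 0.52 (log2 fold -3.05, FDR 0.039).

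The 3 peaks called higher had low or zero control means. The same Arrb1 intron held one of them, at chr7:99554128-99554229, with a knockout mean of 3.50 and a control listed at 0 (FDR 0.0486), so that peaks called in opposite directions lay in 1 intron. Adora1, an adenosine receptor gene, had a peak at chr1:134230480-134230656 with a knockout mean of 3.76 and a control listed at 0 (FDR 0.0332). No fold is given against 0. Gdf6, a BMP family ligand, had a peak at chr4:9847479-9847645 that rose from 0.51 to 3.80, a log2 fold of 3.29 (FDR 0.0466). Group means under 1 took only 4 distinct values in each column of the whole table, at 177 peaks in the knockout column and 483 in the control column, of which 15 and 14 were first-intron peaks. A step between such values can be a small number of reads, and the depth is unknown.

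Just past the threshold stood peaks of both signs. The Arf GTPase-activating protein gene Asap3 had a log2 fold of 1.57 (FDR 0.0507), the mitochondrial ATP carrier gene Slc25a24 3.21 (FDR 0.0539) and a peak in Atl1 that was assigned to the kinase gene Map4k5 2.63 (FDR 0.0644). The protocadherin gene Pcdhga1 had 2 peaks in an intron of Gm38667, with 2.27 (FDR 0.0663) and 1.94 (FDR 0.0891). The antisense transcript Hectd2os had 1.60 (FDR 0.0702), and Cacnb2, a calcium channel subunit, had a knockout mean of 3.23 against a control listed at 0 (FDR 0.0703). On the negative side Zfp65 had -1.94 (FDR 0.0507) and Sec24b, a coat protein of vesicles leaving the endoplasmic reticulum, -2.38 (FDR 0.0665). Among peaks with both group means above the lowest value of their column, and without predicted genes, the largest other positive folds lay at the matrix metalloproteinase gene Mmp27 (2.55), the calcium sensor gene Stim1 (2.45), Tmem217 (2.40), Mir1893 in an intron of Epc1 (2.35), the myosin gene Myo18a (2.25) and Zfp442 (2.25), and their FDR values were between 0.153 and 0.325. By the same limits, the largest other negative folds lay at Ppp3r1, the regulatory subunit of calcineurin (-2.72, FDR 0.103), Il6ra, an interleukin receptor chain (-2.57, FDR 0.134), and the homeobox gene Hmx2 (-2.48, FDR 0.136). These folds rest on low means in 1 group. Control means ran from 0.51 (Tmem217) to 1.46 (Myo18a) for the positive peaks, and knockout means from 0.52 (Ppp3r1 and Il6ra) to 0.82 (Hmx2) for the negative ones. The control mean of Slc25a24 was also 0.51.

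The direction of first-intron peaks went with their distance from the TSS. Among the 301 peaks 0 to 2000 bases downstream, 64 had a positive fold and 237 a negative one, a positive share of 21.3%. The share was 25.0% from 0 to 500 bases, 20.5% from 501 to 1000 and 19.0% from 1001 to 2000. It was 41.5% from 2001 to 5000 bases and 51.4% from 5001 to 10000. The median log2 fold was -0.98 within 2000 bases downstream and -0.80 from 2001 to 10000. First-intron peaks beyond 10000 bases had a positive share of 58.7%. The excess of negative folds thus lay mainly in the first 2000 bases of the gene.

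Peaks at a negative distance went the other way. Their distance is to a TSS that lies downstream of them, so the intron is that of a longer transcript or of another gene. There were 49, of which 34 had a positive fold (69.4%), with a median log2 fold of 0.91. In 26 the annotated transcript belonged to the assigned gene (18 positive, 8 negative), and in 23 it belonged to another gene or could not be matched (16 positive, 7 negative). Intergenic peaks upstream of a TSS within the same limit had a close share, 69.1% (279 positive, 125 negative). None of these differences in share was tested, since neighbouring peaks are not independent and the table holds only listed peaks.

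**Figure D2:**
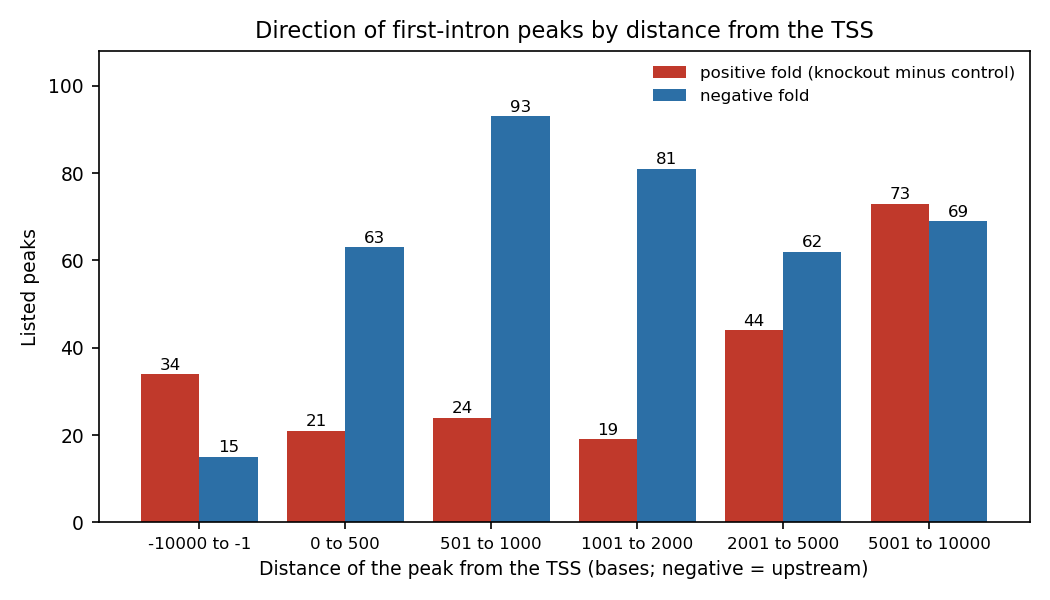
Bars count the listed first-intron peaks with a positive (red) and a negative (blue) fold, knockout minus control, in 6 ranges of distance from the TSS in bases. Negative folds outnumber positive ones 63 to 21, 93 to 24 and 81 to 19 in the 3 ranges up to 2000 bases, and positive folds are more numerous upstream (34 to 15) and from 5001 to 10000 bases (73 to 69).

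Peaks annotated as promoters had nearly the same split as first-intron peaks. Of 415 promoter-TSS peaks 36.4% had a positive fold (interval 31.7 to 41.2), with a median log2 fold of -0.74. Within 0 to 500 bases downstream the promoter-annotated peaks had 22 positive and 85 negative folds, beside 21 and 63 for first-intron peaks. Later introns within 10000 bases had a positive share of 53.3% (47.9 to 58.6) and a median of 0.78. At matched distances the gap between first and later introns varied. From 1001 to 2000 bases later introns had 9 positive and 8 negative folds (52.9%), beside 19.0% for the first intron, and from 501 to 1000 bases 6 and 12 (33.3%), beside 20.5%. From 5001 to 10000 bases later introns had 90 positive and 66 negative folds, beside 73 and 69 for the first intron, and from 2001 to 5000 bases 32 and 38, beside 44 and 62. Intergenic peaks within 10000 bases had a positive share of 68.6% (64.2 to 72.7). Later introns and intergenic DNA beyond 10000 bases had shares of 62.2% and 76.3%.

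**Figure D3:**
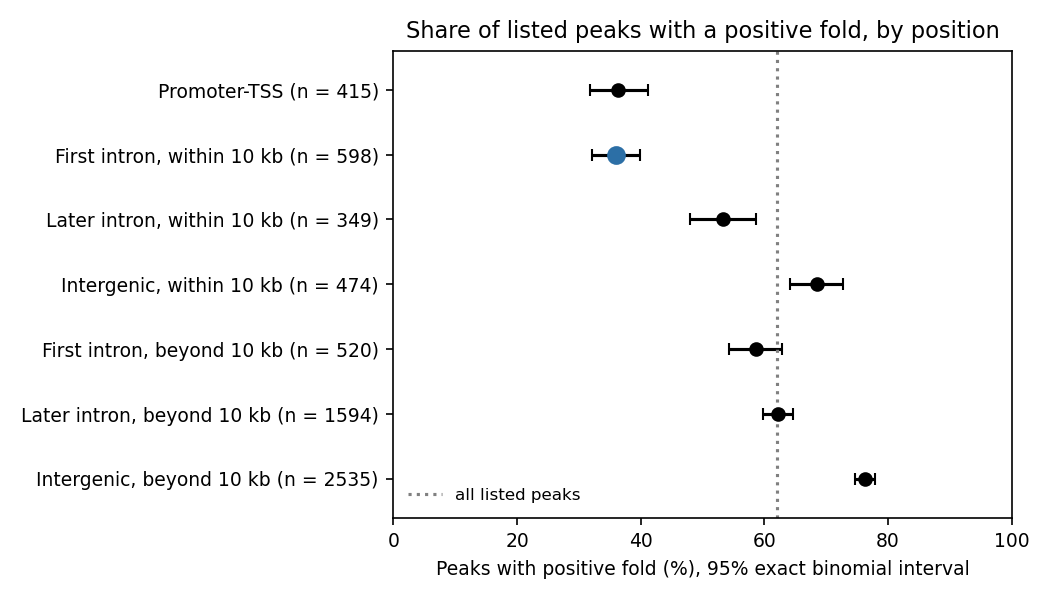
Points give the percentage of listed peaks with a positive fold in 7 position classes, with 95% exact binomial intervals that cover counting error only, and the dotted line gives all listed peaks (62.1%). First-intron peaks within 10 kb (blue, 36.0%) lie beside promoter-TSS peaks (36.4%) and below the other 5 classes, which run from 53.3% to 76.3%.

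Signal strength went with direction near the TSS, but not in the same way at other distances. The mean log2 signal of first-intron peaks ran from 1.86 to 7.11 with a median of 4.05, above the whole table's median of 3.74. Among the peaks 0 to 2000 bases downstream, 25 of 166 with signal at or above 4.05 had a positive fold (15.1%), and 39 of 135 with weaker signal (28.9%). From 2001 to 10000 bases the counts were 52 positive and 55 negative at or above the median, and 65 and 76 below it. At negative distances they were 20 and 6 at or above the median, and 14 and 9 below it. The low share near the TSS was thus present in strong and in weak peaks. Of the 13 called peaks 8 were among the 153 of lowest signal, up to 3.33. Widths ran from 74 to 1283 bases with a median of 256.5. The share of positive folds was 41.1% where the transcript had 1 or 2 introns, 39.7% at 3 to 5, 31.9% at 6 to 10, 39.5% at 11 to 20 and 24.1% above 20 introns.

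In 557 of the 598 peaks the annotated transcript belonged to the gene the peak was assigned to. These had 195 positive and 362 negative folds. For the other 41, where the gene names differ or could not be matched, the split was 20 to 21. Among these 41 were 3 of the 13 called peaks, the Mir7687 peak in Gse1 and the Mir326 peaks in Arrb1. That is 7.32% called, beside 1.80% of the 557 and 3.02% of all listed peaks, a difference that was not tested. Nearest to a TSS were LOC100861615 (119 bases, log2 fold 1.48), Gimap1, a GTPase of lymphocytes (126 bases, -0.80), and Cldn34c1, a claudin (126 bases, -0.92). Just inside the limit lay Gm14461 at 9974 bases (log2 fold 1.40) and a peak in Gnaq assigned to E030024N20Rik at 9983 bases (-1.26). Just outside it lay Pmepa1, an inhibitor of TGF-beta signalling, at 10028 bases (-0.84) and the mitochondrial transport adaptor gene Trak1 at 10057 bases (-1.36).

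No gene of the vascular, signalling and chromatin lists had a first-intron peak called at FDR < 0.05. Over all first-intron peaks only 2.17% were called, so 0 among the 53 list peaks is near that share. The 15 lists together named 856 genes, of which 43 had 53 first-intron peaks, 16 with a positive and 37 with a negative fold in the authors' deposited table. Their median log2 fold was -1.02, beside -0.91 for all first-intron peaks. The 45 pan-endothelial genes had 9 peaks in 4 genes, 8 negative. The values below are therefore given as values of single peaks that did not pass.

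Mef2c, a transcription factor of endothelial and muscle development, had 4 first-intron peaks. At 806 bases from one TSS the knockout mean was 4.59 and the control mean 5.80 (log2 fold -1.21, FDR 0.101), and at 1173 bases from the same TSS the fold was -0.89 (FDR 0.442). The other Mef2c peaks lay upstream of different start sites. The one at -7252 bases had a fold of -1.07 (FDR 0.331), and the strongest, at -5301 bases, had 6.54 in the knockout and 5.71 in the control (0.83, FDR 0.196). Mef2c thus had 3 peaks of negative and 1 of positive fold. Ptprm, a receptor tyrosine phosphatase of endothelial junctions, had 3 peaks of negative fold, from -1.31 to -0.98, with FDR values of 0.302 to 0.325. Emcn, the sialomucin of veins and capillaries, had 2.99 in the knockout and 4.33 in the control (FDR 0.211). Adgrf5, an adhesion G protein-coupled receptor, had 6.06 and 6.76 (FDR 0.394).

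For the pathways named in the study's title, the background is 43 of 856 genes with a first-intron peak over all 15 lists. The Notch list had 21 listed peaks of any class, the VEGF list 32 and the tip cell list 30. Of all 6891 listed peaks, 598 were in the first-intron set, so no shortage can be read from the small counts below. In the Notch list, 1 of 44 genes had a first-intron peak, Fbxw7, the ubiquitin ligase subunit that targets active Notch, with a log2 fold of -1.25 (FDR 0.473). In the VEGF list, 1 of 49 genes did, Ptk2 (focal adhesion kinase), with 3.36 in the knockout and 4.58 in the control (FDR 0.28). Tip cells lead vessel sprouts, and 3 of the 28 genes of their list had a peak. Igfbp3, a secreted binding protein of insulin-like growth factors, had 4.08 in the knockout and 2.33 in the control (log2 fold 1.75, FDR 0.146). Cxcr4, the chemokine receptor also counted in the arterial list, had 4.21 and 4.96 (-0.75, FDR 0.533), and Mcam, a cell adhesion molecule shared with pericytes, had -1.02 (FDR 0.42). Emcn was the 1 venous gene with such a peak.

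Barrier and growth factor genes were mixed. Ocln, the tight junction protein occludin, was the 1 gene of the Wnt and blood-retina barrier list, with folds of -1.78 (FDR 0.338) and -1.35 (FDR 0.392). In the TGF-beta and BMP list the receptor gene Bmpr1b had 1.88 (FDR 0.129), the ligand gene Tgfb2 -1.57 (FDR 0.205), the latent binding protein gene Ltbp1 -0.98 (FDR 0.419) and the ubiquitin ligase gene Smurf1 -0.94 (FDR 0.392). Of the matrix and adhesion genes the integrin subunit gene Itga9 had -1.80 at 1210 bases and 1.55 at 4691 bases, Lama1, a laminin chain of the basement membrane, 1.04, the membrane-bound protease gene Mmp15 -0.88 and the collagen hydroxylase gene Plod1 -1.03, with FDR values of 0.19 to 0.455. Guidance genes had 3 peaks, 1.43 at Sema4d and 0.92 and -1.10 at Sema6d.

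For the genes of H2B ubiquitination around RNF20 the first-intron set held 2 peaks, too few to read a shortage or an excess from. Neither Rnf20 nor Rnf40 had a listed peak of any class, so the table cannot show the deleted gene. Of 45 genes of H2B ubiquitination and the Paf1 complex, 2 had a first-intron peak, beside 43 of 856 genes over all 15 lists. This list had 7 listed peaks of any class, and of all 6891 listed peaks 598 were in the first-intron set. Dot1l, the histone methyltransferase that acts on ubiquitinated nucleosomes, had 3.88 in the knockout and 5.23 in the control (log2 fold -1.35, FDR 0.153). Usp22, the deubiquitinase subunit of the SAGA complex, had 5.08 and 6.10 (-1.02, FDR 0.27). The cell cycle list had Cdk1, the mitotic kinase (-1.64, FDR 0.251), and Fzr1, an activator of the anaphase-promoting complex (-1.21, FDR 0.379).

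**Figure D4:**
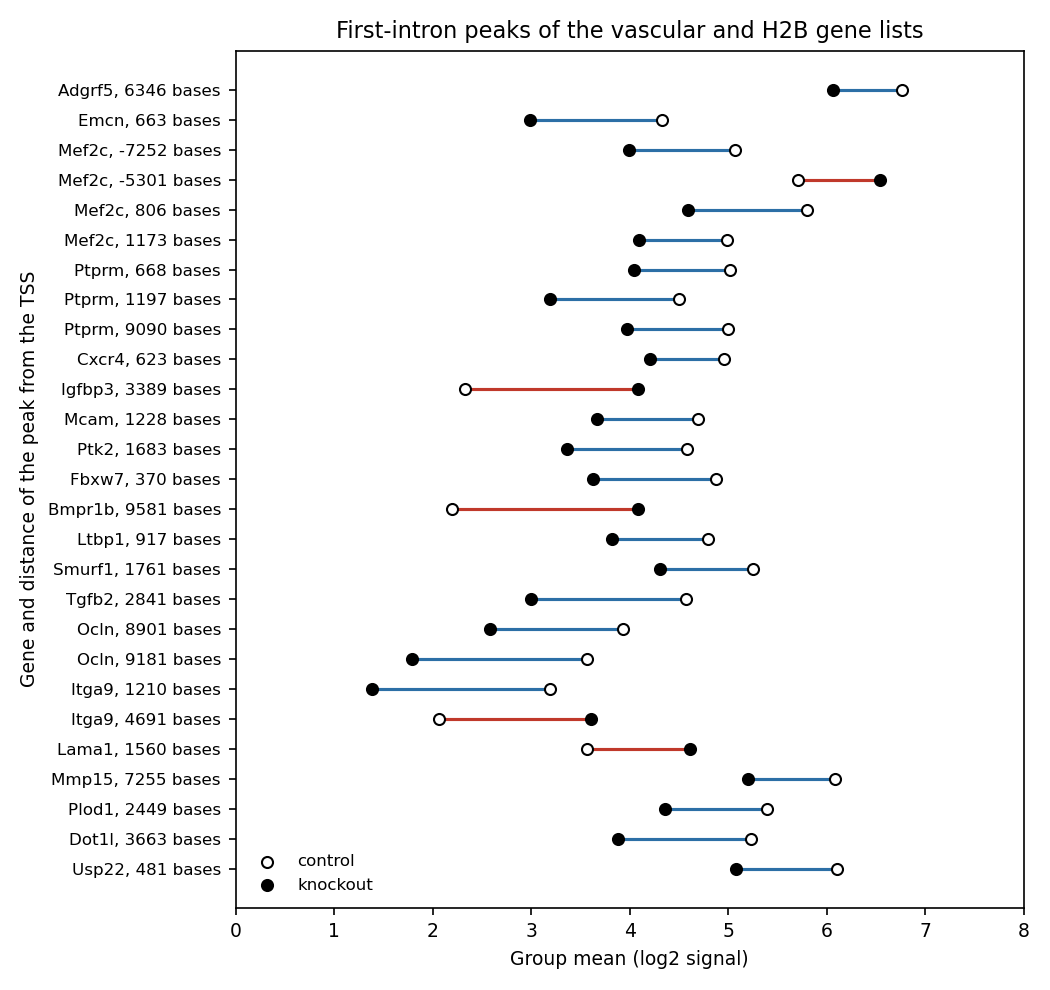
Open circles give the control mean and filled circles the knockout mean, in log2 signal, labelled by gene and distance from the TSS. Drawn are the 27 first-intron peaks of 8 vascular and H2B lists, chosen from the 15 lists. Blue lines mark the 22 negative folds and red lines the 5 positive ones (Mef2c at -5301 bases, Igfbp3, Bmpr1b, Itga9 at 4691 bases and Lama1). None passed FDR < 0.05. Over all 15 lists 16 peaks had a positive and 37 a negative fold.

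Kinase and phosphatase scaffolds had 5 positive and 4 negative peaks, from 2.63 at the Atl1 intron peak assigned to Map4k5 to -1.60 at Akap1. The next largest positive fold was 2.17, at the kinase anchor gene Akap12. Of the transcription factor list Runx3 had 1.20, Fos -1.18 and Fosl1 -0.75.

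Of 137 marker genes of other retinal cell types, 4 had a first-intron peak, beside 43 of 856 genes of the vascular, signalling and chromatin lists. The 10 lists of such markers had 4 first-intron peaks, Trpm1 of bipolar cells (log2 fold 1.59, FDR 0.226), Gja1 of astrocytes (-1.25, FDR 0.259), and Pdgfrb (-1.41, FDR 0.338) and Mcam of pericytes. Markers of photoreceptors, amacrine and horizontal cells, ganglion cells, Müller glia, microglia, erythroid cells and pigment epithelium had 0. Each of these lists did have listed peaks of other classes, from 3 (erythroid cells) to 17 (Müller glia). The table lists differences, not levels at all peaks, so the makeup of the libraries cannot be read from it, and the part of other cells in these folds was not tested.

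Several first-intron peaks of 1 gene were compared by sign, in a set where 383 of 598 peaks were negative. Like signs are thus common among unrelated peaks too, and whether they were more common within a gene was not tested. Some peaks of a gene were also close together, the Ocln peaks within 419 bases and the Zfp65 peaks within 470. Of 28 such genes 16 had only negative folds, 3 only positive ones (Anxa13, Gm826 and Pcdhga1) and 9 had both. Among the negative were the actin-binding protein gene Cttn (-0.88 and -1.04), the potassium channel gene Kcnq1 (-1.25 and -1.03), the Wnt coactivator gene Bcl9l (-1.88 and -1.14) and the neuronal adhesion gene Nrcam (-0.75 and -1.34). Wnt5b, a Wnt ligand, had folds of -1.54 and -0.93 at 514 and 779 bases, and at -3904 bases a knockout mean of 3.42 with a control listed at 0 (FDR 0.0962). At Apol6 the peak at 311 bases had -2.16 (FDR 0.0754) and the one at -8090 bases, in an intron of Mb, 0.82. Phactr2 had -0.70 at 851 bases and 1.44 at 5609 bases. In 23 of the 28 genes the distances were to 1 TSS, and in the other 5 (Apol6, Mef2c, Phactr2, Sema6d and Wnt5b) to different start sites of the gene.

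**Figure D5:**
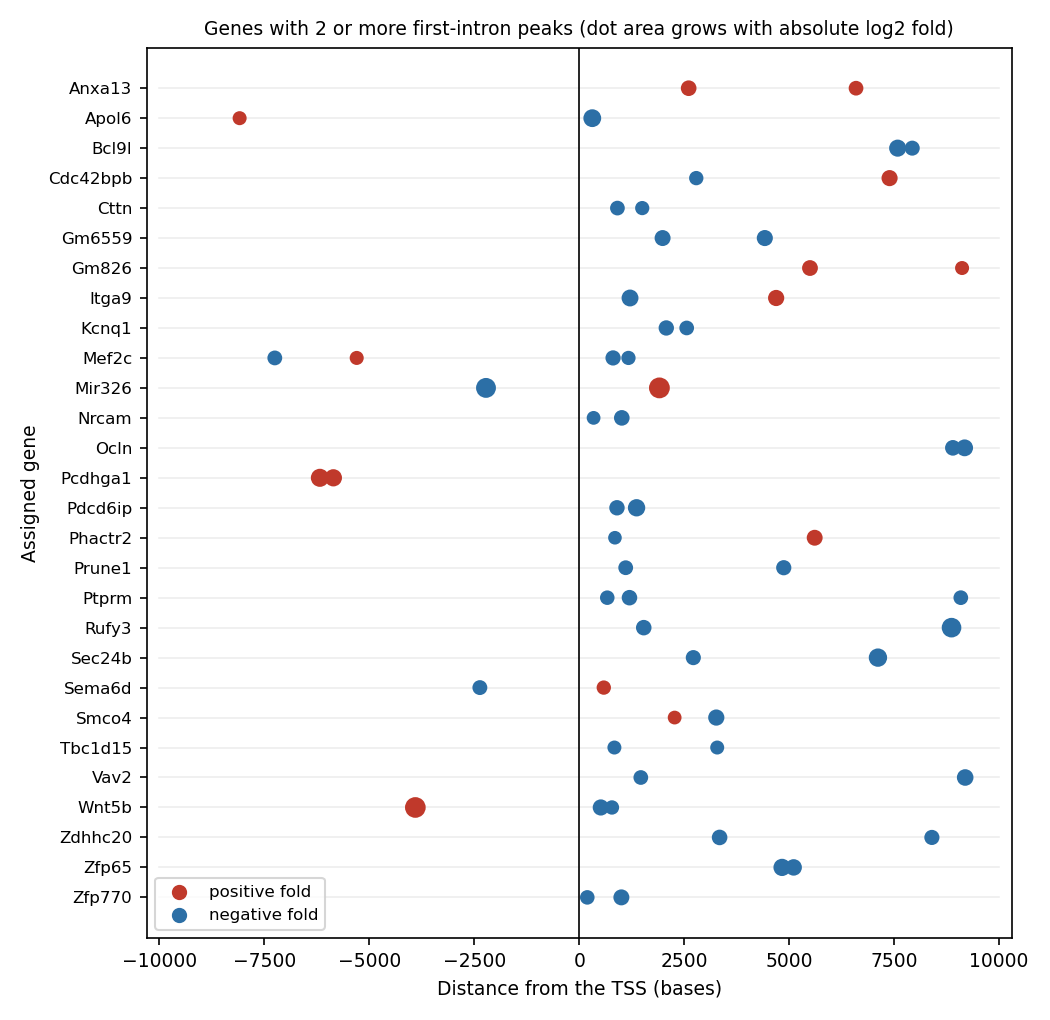
Each row is 1 of 28 genes with 2 or more first-intron peaks, and each dot a peak at its distance from the TSS in bases (in Apol6, Mef2c, Phactr2, Sema6d and Wnt5b the peaks of a row refer to different start sites), red for a positive and blue for a negative fold, with an area that grows with the absolute log2 fold. In 16 rows all dots are blue, in 3 all are red, and 9 rows hold both colours.

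Peaks close together on the chromosome often had like signs, and whether more often than unrelated peaks was not tested. Of 35 first-intron peaks with another listed peak of any class within 1000 bases, 32 had the sign of all such neighbours, and of 106 with one within 10000 bases, 76 did. Genes with first-intron peaks had 252 other listed peaks in 170 genes. Of the 242 that could be compared, 133 had the sign of the gene's first-intron peaks. At promoter-TSS peaks 15 of 19 did, 11 of 12 where the first-intron peaks were negative and 4 of 7 where they were positive. For intergenic peaks it was 45 of 96, for later introns 35 of 67 and for first-intron peaks beyond 10000 bases 28 of 48.

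Zinc finger genes named Zfp, a grouping chosen after the values were seen, had 17 first-intron peaks in 15 genes, 3 positive and 14 negative, with 2 called. Their positive share of 17.6% stood beside 21.3% for all first-intron peaks within 2000 bases downstream, and their median distance from the TSS was 452 bases. The calls stood beside 2.17% of all first-intron peaks and 3.02% of all listed peaks. The 6 on chromosome 13 were all negative. They were Zfp874a and Zfp729b, called as lower above, Zfp729a (-1.09, FDR 0.293), both peaks of Zfp65 (-1.94, FDR 0.0507, and -1.65, FDR 0.382) and Zfp273 (-0.71, FDR 0.379). The 11 on other chromosomes had 3 positive and 8 negative folds and none called. Leaving out the chromosome 13 zinc finger peaks, a setting added after seeing the data, left 36.3% of the first-intron peaks with a positive fold and 8 called lower.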

How the data were processed

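Retinal endothelial ATAC-seq was analysed from 1 table. Coordinates are on mm10, and the tools named are MACS2, DiffBind, edgeR, ChIPseeker, Bowtie2, Trimmomatic 0.36, Picard 1.119, SAMtools and deepTools, per the submitters' processing notes, which give no roles. How peaks were filtered, reads shifted or signal scaled was not stated there. Group means and fold changes were deposited by the authors as log2 values, with an unadjusted p-value, an FDR (q-value), an annotation and a distance to the TSS per peak. In each of the 6891 rows the log2 fold was the difference of the group means to within 0.011, and the largest listed p was 0.0499. The test count implied by the FDR is about 76300, of which about 3800 would be listed with no effect. Depth is unknown, so no depth-based interval is given.

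Rows were counted and summarised with Python 3.11.15, pandas 2.3.3, NumPy 2.4.6 and SciPy 1.17.1, and the counting was checked on simulated data. Width is end minus start plus 1. Of 565 symbols 563 matched RefSeq, and 596 annotated transcripts matched. Named genes were all called peaks, the 10 smallest FDR and 10 largest folds per direction without predicted genes, all list genes, genes with several peaks, and peaks at the limits, together with promoter examples and Zfp genes. The members and lists were chosen with earlier results of these data known. The values of 1 list are not reported here. Alternatives varied the distance limit, signal, fold, p and FDR thresholds, gene assignment, lowest levels and 1 peak per gene.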

Additional observations from a re-analysis of the deposited data

How the results depend on the processing

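The 44 alternative values stayed close to those reported in 31 cases. The share of positive folds was 28.4% with a limit of 5000 bases and 42.8% among peaks at least 1000 bases from the TSS, both under the 62.1% of the table. The median log2 fold was -1.15 at an absolute fold of at least 1 and -1.30 at an unadjusted p under 0.01. Called peaks depended more on the setting. With a limit of 5000 bases 6 were lower, and with 20000 bases 6 were higher. Above the table's median signal 0 were higher and 3 lower, and with the lowest group means left out 1 was higher. At FDR < 0.01 the counts were 0 higher and 2 lower, and at FDR < 0.1 14 and 21. Settings added after seeing the data gave 33.0% positive among peaks at positive distance and 36.3% without the chromosome 13 zinc finger peaks. No paired analysis was possible because the table holds no value per library, and for the same reason no library could be left out. The table's own p threshold limits every share to listed peaks.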
